A study of Mus musculus with 59 samples.

Results

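The genes described here were the 5 dopamine receptors (Drd1, Drd2, Drd3, Drd4 and Drd5) and the monoamine oxidases Maoa and Maob, chosen by symbol from a table of 24346 gene symbols, in which all 7 were found. They were followed through 59 RNA sequencing libraries of the ventral tegmental area, a part of the midbrain whose dopamine neurons reach the nucleus accumbens and the cortex, from male mice. The 8 groups were cocaine and saline in each of 4 paradigms: acute injections in the home cage (5 cocaine and 6 saline libraries), chronic injections in the home cage (6 and 6), conditioning with cocaine or with saline (6 and 6), and intravenous self-administration (15 and 9). The labels gave no strain, age, dose, time of collection or batch, and did not say whether each library came from a separate mouse, and p-values therefore speak only of how these libraries spread, which may be technical. Values are FPKM, fragments scaled by transcript length and library total, which allow levels to be compared between genes.

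Dopamine receptors are G protein-coupled receptors in a pair of classes. The D1 class (Drd1 and Drd5) acts through Gs and Golf proteins to raise cyclic AMP, and the D2 class (Drd2, Drd3 and Drd4) acts through Gi and Go proteins to lower it. In dopamine neurons the D2 receptor is the main autoreceptor: it opens potassium channels of the GIRK family and limits firing and release. Monoamine oxidases A and B sit on the outer mitochondrial membrane and deaminate dopamine taken back into cells. Monoamine oxidase A is known from catecholamine neurons, and monoamine oxidase B from astrocytes and serotonin neurons. Cocaine blocks dopamine reuptake, and the design asked how the transcriptome of this region differed from saline in each way of giving the drug.

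In the GENCODE M21 annotation of GRCm38, all 7 are protein-coding genes. Drd1 lies at chr13:54051183-54055705 on the minus strand and Drd2 at chr9:49340627-49408177 on the plus strand, with 8 exon blocks. Drd3 is at chr16:43754026-43822932, Drd4 at chr7:141292006-141296464 and Drd5 at chr5:38319367-38322518, all on the plus strand. Drd5 has 1 exon block, and 1531 of its 3152 exon bases are shared with Gm26560, annotated on the opposite strand. Whether counting used strand is not given in the sources used here, so in the shared bases reads of Drd5 and of this antisense gene cannot be told apart. Maoa (chrX:16619698-16687818, plus strand) and Maob (chrX:16709282-16817366, minus strand) are neighbours that face each other tail to tail across 21.463 kb.

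The windows around the annotated starts of Drd2 and Maoa are shown because these were the members whose levels followed each other most closely over the acute, chronic and conditioning libraries, though not over the self-administration libraries (values below). They are RefSeq windows of 300 bases on GRCm38.p6, read 5′ to 3′ on the plus strand, with the motif GGGCGG and its reverse complement CCGCCC, the core of the GC box, in capitals. Drd2 spans chr9:49340153-49340452, which ends before the GENCODE start of the gene, and Maoa spans chrX:16619448-16619747.
Drd2: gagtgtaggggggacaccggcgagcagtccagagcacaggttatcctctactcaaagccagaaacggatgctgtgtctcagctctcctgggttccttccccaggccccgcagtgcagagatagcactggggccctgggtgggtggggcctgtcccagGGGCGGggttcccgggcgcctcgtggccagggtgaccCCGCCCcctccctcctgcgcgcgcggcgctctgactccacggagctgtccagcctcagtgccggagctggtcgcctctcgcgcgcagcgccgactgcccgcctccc
Maoa: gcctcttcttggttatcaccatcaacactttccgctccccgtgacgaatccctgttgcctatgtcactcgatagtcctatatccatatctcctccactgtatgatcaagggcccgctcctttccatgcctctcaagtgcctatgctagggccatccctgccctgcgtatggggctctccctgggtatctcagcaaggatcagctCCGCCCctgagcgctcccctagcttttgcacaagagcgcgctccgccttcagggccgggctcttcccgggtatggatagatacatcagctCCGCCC
Each window held 2 matches and no copy of TATAAA or of AAGGTCA, on either strand. GGGCGG was present in 35.7% of 32851 RefSeq windows of this length, TATAAA in 13.6% and AAGGTCA in 4.72%. G and C made up 70.3% of the Drd2 window and 57.7% of the Maoa window. A match is a description of the letters and not a binding site.

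Drd2 was the most abundant member. Over all 59 libraries its mean was 41.8 ± 13.8 FPKM (SD), above Maoa at 22.7 ± 2.69 and Maob at 15.8 ± 4.37. The other receptors were far lower: Drd1 averaged 1.15 ± 0.507 FPKM, Drd5 0.902 ± 0.215, Drd3 0.351 ± 0.136 and Drd4 0.0862 ± 0.0750. This order held inside most libraries. Drd2 exceeded Maoa in 59 of 59 libraries, and Maoa exceeded Maob in 58, the exception being library 6 of the self-administration cocaine group. Drd1 and Drd5 had no fixed order, with Drd1 higher in 41 libraries and Drd5 in 18. Drd4 was listed at 0 in 13 libraries, 11 of them of self-administration. Where a receptor lay under 1 FPKM, its fold changes on the log2(FPKM + 1) scale understate the change.

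**Figure D1:**
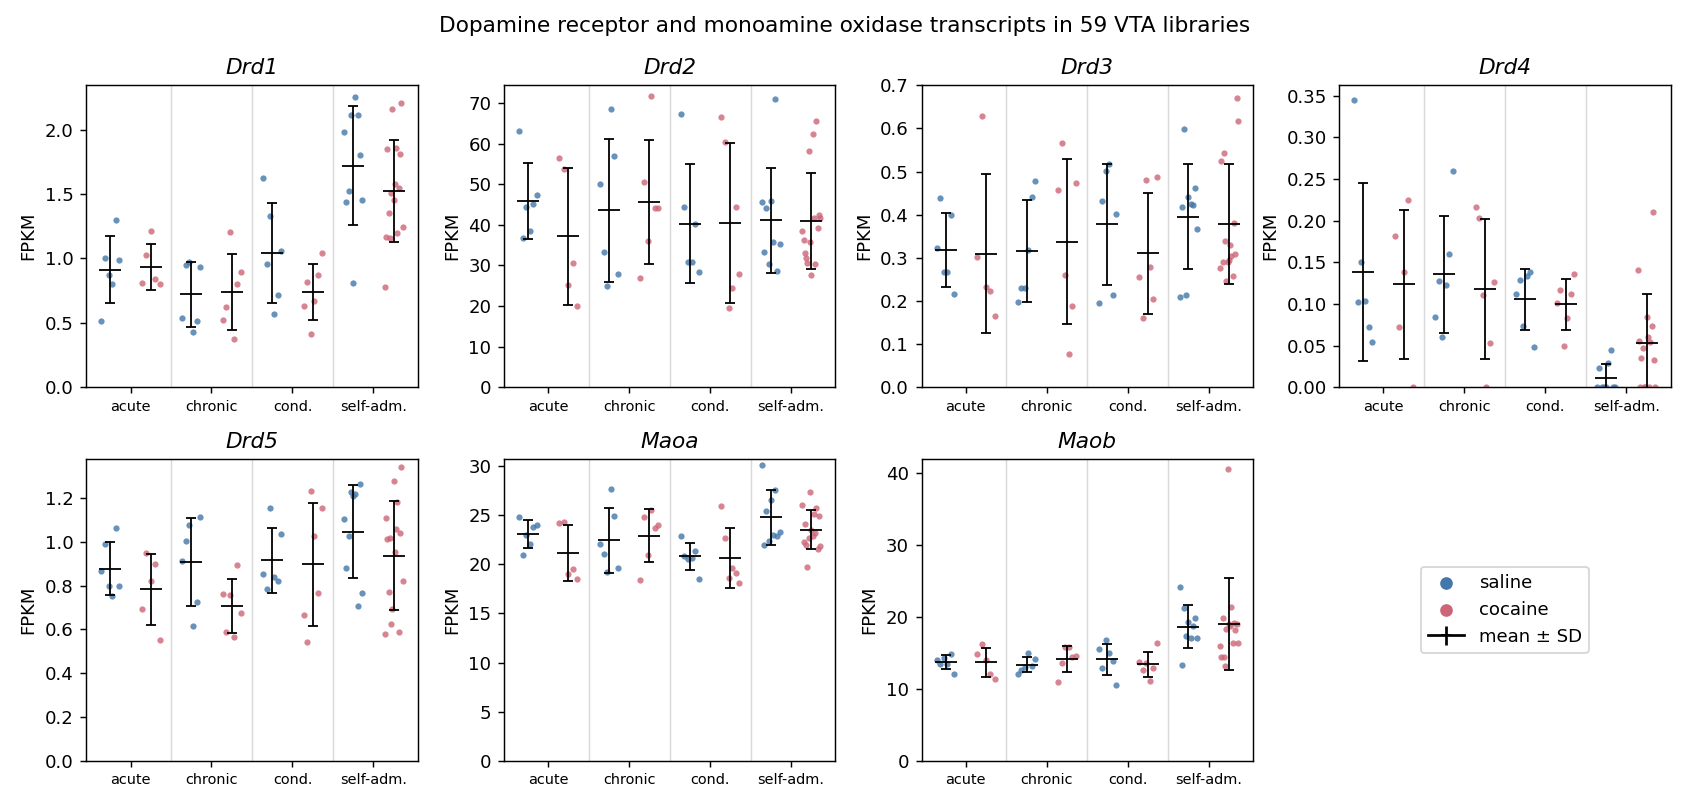
FPKM of each member in every library (points), by paradigm and drug (blue, saline; red, cocaine), with mean ± SD, each gene on its own linear axis. Cocaine and saline points overlap in every paradigm for all 7 genes, while Drd1 and Maob sit higher and Drd4 lower in self-administration.

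The FPKM of a library summed to between 398577 and 457508, read depth is unknown, and no 2 libraries held identical values. Self-administration saline libraries differed from other saline libraries at 46.5% to 50.2% of genes tested, and the labels do not say whether they were prepared apart, so paradigm and preparation cannot be told apart. Dopamine neuron markers were present in all libraries (Th from 124 to 691 FPKM) and varied widely inside every group. In bulk tissue, fewer cells of a type and less RNA per cell cannot be told apart.

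No member was called between cocaine and saline in any paradigm. Cocaine and saline were compared by limma on log2(FPKM + 1) within each paradigm, giving 27 tests of members, and 0 passed an adjusted p of 0.05. The lowest adjusted p was 0.663, and none of the 27 had an unadjusted p under 0.05. The background was the same: 0.00% of all genes tested were called in the acute, chronic, conditioning and self-administration comparisons. No member had cocaine and saline libraries that did not overlap, which held for 0.276%, 0.416%, 0.362% and 0.00% of all genes above 0 in these paradigms. Exact permutation tests of the same differences gave no smaller an adjusted p than 0.996.

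Drd2, the autoreceptor gene, ranged widely between libraries of the same treatment. In the acute paradigm it stood at 56.5, 53.7, 25.1, 30.6 and 19.95 FPKM in the 5 cocaine libraries and between 36.8 and 63.2 (median 44.8) in the 6 saline libraries. Of the cocaine libraries, 3 lay below every saline library and the other 2 inside the saline range. The difference was -0.39 ± 0.27 (log2, SE; 95% interval -0.99 to 0.21), with an adjusted p of 0.985 by limma. Th, Slc6a3 and Slc18a2, which encode the enzyme that makes the dopamine precursor and the plasma membrane and vesicular carriers of dopamine, had differences of -0.47 ± 0.37, -0.60 ± 0.40 and -0.50 ± 0.34 in the same libraries, none of them called.

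After chronic injections, Drd2 ran from 26.9 to 71.8 FPKM (median 44.2) with cocaine and from 24.8 to 68.6 (median 41.7) with saline, a difference of 0.10 ± 0.29. After conditioning it ran from 19.5 to 66.6 FPKM (median 36.2) with cocaine and from 28.2 to 67.3 (median 35.5) with saline, a difference of -0.07 ± 0.33. After self-administration the ranges were 27.6 to 65.6 FPKM (median 38.5) with cocaine and 28.5 to 71.1 (median 35.8) with saline, a difference of -0.00 ± 0.15. In conditioning, 3 of the 6 cocaine libraries lay below every saline library. Outside the saline range lay 1 of 6 chronic cocaine libraries (above it) and 1 of 15 self-administration cocaine libraries (below it). The 95% intervals were -0.55 to 0.74, -0.81 to 0.67 and -0.31 to 0.31, not adjusted for the number of genes tested. They are centred on the measured differences and are not limits of detection. Calls used p adjusted over all genes, so changes in Drd2 beyond these sizes could also have gone uncalled.

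Relative to Th, Slc6a3 and Slc18a2 in the same library, Drd2 also showed no difference that passed the test. Log2(Drd2 + 1) minus the mean of log2(FPKM + 1) for Th, Slc6a3 and Slc18a2 was -2.35 ± 0.23 (SD, n = 5) with acute cocaine and -2.48 ± 0.08 (n = 6) with acute saline. The difference of 0.13 had an exact permutation p of 0.223, adjusted p = 0.582 over 20 ratio comparisons (exact, two-sided). In the chronic, conditioning and self-administration paradigms the differences were -0.11, -0.02 and 0.09, with exact adjusted p from 0.776 to 0.890.

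Drd1 was low with either drug or saline in the acute paradigm. The 5 cocaine libraries held 0.811, 1.02, 1.21, 0.836 and 0.798 FPKM, and the 6 saline libraries lay between 0.512 and 1.30 (median 0.928). All cocaine values fell inside the saline range, and the difference was 0.02 ± 0.10. With chronic injections Drd1 ran from 0.376 to 1.21 FPKM (median 0.712) with cocaine and from 0.429 to 0.974 (median 0.734) with saline, a difference of 0.01 ± 0.12.

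Conditioning gave the largest cocaine difference of Drd1. It lay between 0.413 and 1.04 FPKM (median 0.743) in the 6 cocaine libraries and between 0.569 and 1.62 (median 1.01) in the 6 saline libraries. In 5 of the 6 cocaine libraries it was below the saline median, and the ranges overlapped. The difference was -0.22 ± 0.12, with an adjusted p of 0.663 by limma. In self-administration Drd1 spanned 0.776 to 2.20 FPKM (median 1.51) with cocaine and 0.808 to 2.25 (median 1.80) with saline, a difference of -0.10 ± 0.10 with nearly the same range on both sides.

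Drd5, the other D1-class receptor, had the lowest unadjusted p among the members. After chronic injections it ran from 0.565 to 0.896 FPKM (median 0.715) with cocaine and from 0.617 to 1.11 (median 0.959) with saline. All 6 cocaine libraries lay below the saline median, but the ranges overlapped. The difference was -0.16 ± 0.07, with p = 0.0521 and adjusted p = 0.710 by limma, and an exact permutation p of 0.0693. Acute cocaine libraries held 0.694, 0.949, 0.823, 0.897 and 0.551 FPKM against 0.753 to 1.06 (median 0.833) with saline, a difference of -0.08 ± 0.07. For conditioning the ranges were 0.545 to 1.23 FPKM (median 0.895) with cocaine and 0.783 to 1.15 (median 0.847) with saline, a difference of -0.02 ± 0.09. For self-administration they were 0.578 to 1.34 FPKM (median 1.01) and 0.708 to 1.26 (median 1.10), a difference of -0.08 ± 0.07. All 4 values were below 0, none by a margin that passed the test.

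Drd3, a D2-class receptor with high affinity for dopamine, stayed under 0.7 FPKM throughout. With acute treatment it was at 0.301, 0.629, 0.231, 0.223 and 0.164 FPKM in the cocaine libraries and between 0.217 and 0.438 (median 0.295) with saline. Chronic cocaine libraries lay between 0.0758 and 0.567 FPKM (median 0.359) and chronic saline libraries between 0.198 and 0.478 (median 0.274). These cocaine ranges enclosed the saline ranges. Conditioning values were 0.159 to 0.486 FPKM (median 0.267) with cocaine and 0.196 to 0.517 (median 0.417) with saline, and self-administration values were 0.247 to 0.671 (median 0.309) and 0.210 to 0.598 (median 0.421). Differences ran from -0.07 ± 0.08 in conditioning to 0.02 ± 0.09 in the chronic paradigm, and none was called.

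Drd4 was close to the limit of what these libraries list. Acute cocaine libraries held 0.182, 0.0717, 0.138, 0.225 and 0 FPKM, and acute saline libraries 0.0544 to 0.346 (median 0.103). Chronic values were 0 to 0.217 FPKM (median 0.118) with cocaine and 0.0599 to 0.260 (median 0.125) with saline, and conditioning values were 0.0491 to 0.135 (median 0.106) and 0.0485 to 0.138 (median 0.120). The groups overlapped in all 3 paradigms, where differences lay between -0.02 and -0.01 (log2). In self-administration its mean was under 0.1 FPKM, so it was not tested: it was listed at 0 in 5 of 15 cocaine libraries (highest 0.210 FPKM) and in 6 of 9 saline libraries (highest 0.0450).

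Maoa was the member with the least relative variation. Acute cocaine libraries held 24.2, 24.3, 19.1, 19.6 and 18.5 FPKM, and acute saline libraries 20.9 to 24.9 (median 23.4). The 3 cocaine libraries below the saline range were the 3 with the lowest Drd2. The difference was -0.13 ± 0.08, with an adjusted p of 0.985 by limma. Chronic values were 18.4 to 25.6 FPKM (median 23.9) with cocaine and 19.2 to 27.7 (median 21.6) with saline (0.03 ± 0.10). Conditioning values were 18.1 to 25.9 FPKM (median 19.3) and 18.5 to 22.9 (median 20.7), a difference of -0.02 ± 0.08. Self-administration values were 19.8 to 27.4 FPKM (median 23.2) and 21.96 to 30.1 (median 23.3), a difference of -0.07 ± 0.06. Cocaine and saline ranges overlapped in each.

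Maob also did not separate by drug. Acute cocaine libraries held 14.9, 16.3, 14.0, 12.0 and 11.4 FPKM, and acute saline libraries 12.1 to 14.9 (median 13.8). Chronic values were 10.9 to 15.8 FPKM (median 14.5) with cocaine and 12.2 to 15.0 (median 13.1) with saline, a difference of 0.08 ± 0.08. Conditioning values were 11.1 to 16.4 FPKM (median 13.3) and 10.5 to 16.8 (median 14.5), a difference of -0.06 ± 0.10. In each of these paradigms the cocaine and saline ranges overlapped. Self-administration values were 13.2 to 40.6 FPKM (median 18.3) with cocaine and 13.4 to 24.1 (median 18.8) with saline. The value of 40.6 belonged to library 6 of the cocaine group, and the next highest cocaine library held 21.5. That library also ranked first of all 59 for the mean log2(FPKM + 1) of striatal and cortical markers. It was second for astrocyte markers and last for oligodendrocyte markers, and the part of these in its Maob value was not tested. With it the difference was -0.01 ± 0.12, and without any 1 library the difference lay between -0.09 and 0.04.

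**Figure D2:**
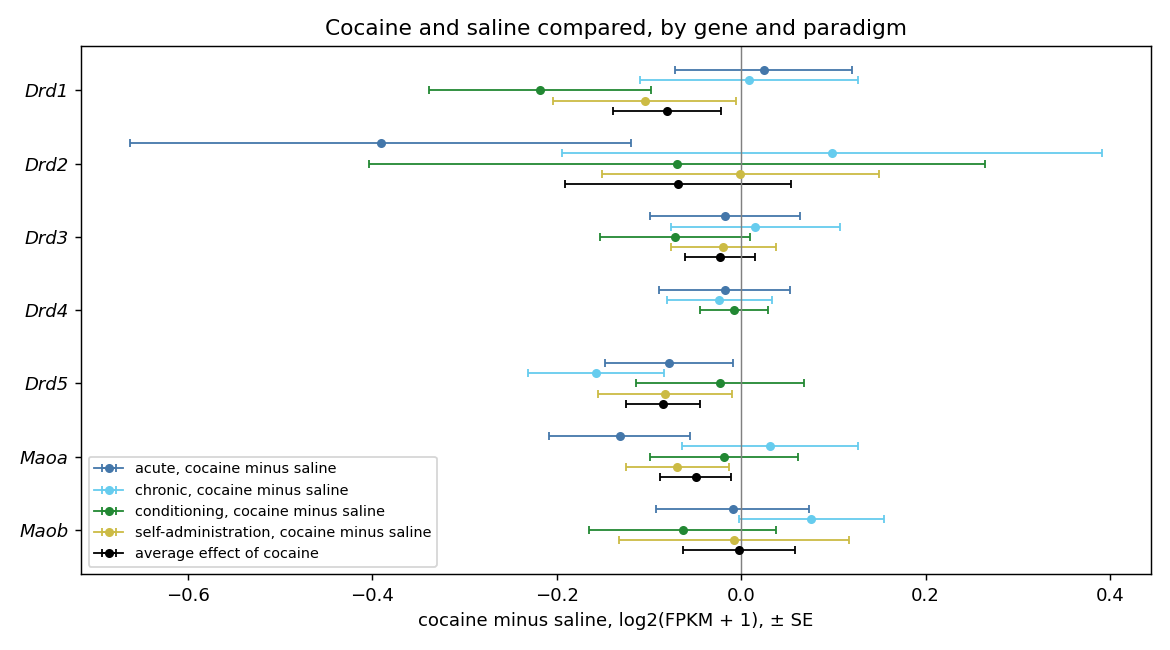
Cocaine minus saline difference of each member on the log2(FPKM + 1) scale (points) with its standard error (bars), for 4 paradigms and for their average. Of the 33 estimates drawn, none passed an adjusted p of 0.05, and the widest error bars belong to Drd2.

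A single estimate of cocaine over the 4 paradigms, with the paradigm as a term, gave 6 tests and 0 calls, against a background of 0.00758% (1 gene of 13186) at the 1 FPKM limit and 0.00614% at the 0.1 FPKM limit used for Drd3 and Drd5. Drd5 had the lowest p: its average difference was -0.08 ± 0.04 (95% interval -0.17 to -0.0038), with p = 0.0405 and adjusted p = 0.395 by limma. Drd1 (-0.08 ± 0.06), Drd2 (-0.07 ± 0.12), Maoa (-0.05 ± 0.04), Drd3 (-0.02 ± 0.04) and Maob (-0.00 ± 0.06) had larger p-values. Whether an effect differed between paradigms was tested directly in 36 comparisons of cocaine effects, which share groups. None was called, with adjusted p of 1.00 by limma, and 0.00% of all genes passed.

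Of other genes in the pathway, 0 were called in any cocaine comparison. Over the average effect, 9 tested genes of dopamine catabolism and clearance had a median difference of 0.03, 19 D2-class effectors -0.03, 21 D1-class effectors -0.03 and 8 genes of dopamine synthesis and transport -0.04, beside -0.00 over all genes.

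Levels in the 4 saline groups were compared next, since they carry no cocaine. No member was called among the acute, chronic and conditioning groups: 18 tests of members in their 3 pairs gave 0 calls, with a lowest adjusted p of 0.946 by limma, against a background of 0.00% (chronic and acute), 0.00757% (conditioning and acute) and 0.0227% (conditioning and chronic) of genes at the 1 FPKM limit and 0.00%, 0.00% and 0.0185% at the 0.1 FPKM limit. Self-administration saline stood apart for Drd1 and Maob. Its 3 comparisons, which share the same 9 libraries, gave 7 calls of 18 tests, all higher in self-administration: 2 of 6 members against acute saline, 2 of 6 against chronic saline and 3 of 6 against conditioning saline. The background in these comparisons was 46.5%, 47.9% and 50.2% of genes at the 1 FPKM limit (23.8%, 25.2% and 26.5% called higher), and 40.7%, 42.1% and 44.4% at the 0.1 FPKM limit. Counts of 2 or 3 among 6 members lie near these shares and set the members apart from no other genes.

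Drd1 was highest in self-administration. The 9 saline libraries held 0.808 to 2.25 FPKM (median 1.80), a mean of 1.72 ± 0.460, against 0.912 ± 0.259 (acute), 0.722 ± 0.253 (chronic) and 1.04 ± 0.389 (conditioning; n = 6 each). Of these 9 libraries, 5 exceeded all 35 acute, chronic and conditioning libraries, whose highest was 1.62, and so did 5 of the 15 self-administration cocaine libraries. The differences were 0.50 ± 0.12, 0.65 ± 0.12 and 0.42 ± 0.12 on the log2(FPKM + 1) scale, with limma adjusted p of 0.00146, 9.06e-05 and 0.00614. The means in FPKM stood at ratios of 1.89, 2.38 and 1.65, and with a pseudocount of 0.1 FPKM the differences were 0.84, 1.16 and 0.69 (log2). These calls held in each of the alternatives run.

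Maob was also higher, at ratios of mean FPKM of 1.36, 1.40 and 1.32 to acute, chronic and conditioning saline. Self-administration saline libraries held 13.4 to 24.1 FPKM (median 18.8), a mean of 18.7 ± 3.01, against 13.7 ± 0.968, 13.4 ± 1.06 and 14.1 ± 2.21 in the acute, chronic and conditioning saline groups. Of the 9, 8 exceeded the highest of the 35 other libraries, 16.8 FPKM, as did 9 of 15 self-administration cocaine libraries. Differences were 0.41 ± 0.09, 0.44 ± 0.09 and 0.38 ± 0.09, with limma adjusted p of 5.79e-04, 2.38e-04 and 0.00104, and these calls also held in each of the alternatives run.

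Maoa differed less. Its saline mean was 24.8 ± 2.81 FPKM in self-administration, 23.1 ± 1.42 in the acute, 22.4 ± 3.28 in the chronic and 20.8 ± 1.40 in the conditioning group. The difference from conditioning saline was 0.24 ± 0.07, with an adjusted p of 0.00759 by limma, and those from acute (0.09 ± 0.07) and chronic saline (0.14 ± 0.07) were not called. The chronic difference was called without library 3 of the chronic saline group (0.20, adjusted p = 0.0194 by limma).

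The ratio of Maoa to Maob was lower in self-administration saline than in acute and chronic saline. Of genes at the 1 FPKM limit, 46.5% and 47.9% were called in these comparisons, and ratios of other gene pairs were not tested. Log2(Maoa + 1) minus log2(Maob + 1) was 0.40 ± 0.15 there (SD, n = 9), 0.71 ± 0.12 in acute and 0.70 ± 0.18 in chronic saline (n = 6 each), and 0.54 ± 0.17 in conditioning saline (n = 6). The difference was -0.31 from acute saline (exact permutation p = 0.00140, adjusted p = 0.0280, two-sided) and -0.30 from chronic saline (exact p = 0.00360, adjusted p = 0.0360). Conditioning saline differed by -0.14, with an exact adjusted p of 0.483. The acute call was lost without library 0 or library 3 of the self-administration saline group (exact adjusted p = 0.0533 for each), and the chronic call was lost in 11 of 15 cases of leaving out 1 library (exact adjusted p up to 0.0899), while the differences stayed between -0.35 and -0.27. No cocaine comparison of this ratio was called.

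None of the other receptors was called in these comparisons. Drd2 was at 41.1 ± 13.0 FPKM in self-administration saline, with differences of -0.18 ± 0.22, -0.04 ± 0.22 and 0.04 ± 0.22 from acute, chronic and conditioning saline. Drd5 (1.05 ± 0.212 FPKM; differences of 0.12, 0.10 and 0.09) and Drd3 (0.395 ± 0.122 FPKM; 0.08, 0.08 and 0.02) were not called. Drd4 went the other way: its 9 self-administration saline libraries held 0, 0.0234, 0, 0, 0, 0.0284, 0.0450, 0 and 0 FPKM, all below the lowest of the other saline libraries (0.0485). Such separation was found for 10.3%, 9.09% and 10.4% of all genes above 0 in the comparisons with acute, chronic and conditioning saline. With no counts in the table, whether 0.0485 FPKM is more than a few reads is unknown.

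**Figure D3:**
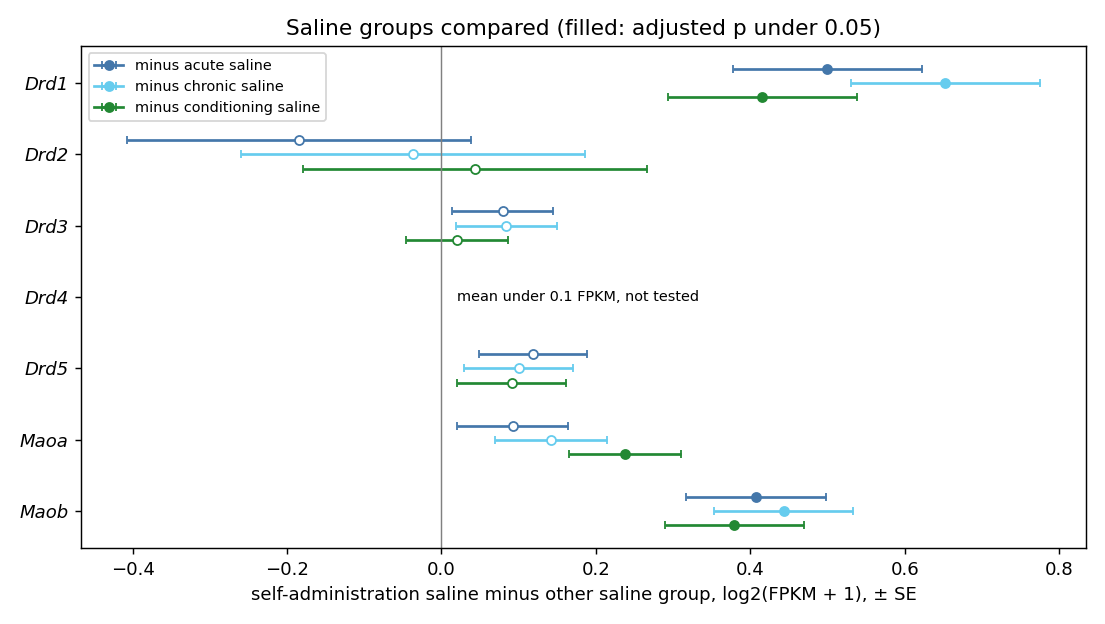
Self-administration saline minus each other saline group on the log2(FPKM + 1) scale (points) with the standard error (bars); filled points passed an adjusted p of 0.05. Drd1 (0.42 to 0.65) and Maob (0.38 to 0.44) are filled in all 3 comparisons, Maoa in 1, and Drd4 was not tested.

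Marker lists were compared between the same saline groups as measured levels, with no test. The 9 markers of histaminergic and other hypothalamic neurons, a region that borders the ventral tegmental area, had a mean log2(FPKM + 1) of 1.78 ± 0.49 in self-administration saline and 1.21 ± 0.35, 1.07 ± 0.33 and 1.20 ± 0.33 in acute, chronic and conditioning saline, with summed FPKM of 27.4 to 227 against 13.2 to 79.7, 11.1 to 44.4 and 16.8 to 47.3. The 6 oligodendrocyte markers were lower, at 8.65 ± 0.27 against 9.06 ± 0.16, 9.08 ± 0.07 and 9.25 ± 0.14. The 8 astrocyte markers were at 6.31 ± 0.22 against 6.15 ± 0.09, 6.15 ± 0.16 and 6.21 ± 0.10. The 9 markers of striatum and cortex, where Drd1 is abundant, were at 1.11 ± 0.08 against 1.22 ± 0.05, 1.16 ± 0.09 and 1.19 ± 0.09.

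Dopamine neuron markers were at 5.72 ± 0.51 in self-administration saline against 6.37 ± 0.28, 6.19 ± 0.68 and 6.11 ± 0.53, and serotonin neuron markers at 1.03 ± 0.20 against 1.35 ± 0.14, 1.51 ± 0.46 and 1.31 ± 0.20. The 4 red blood cell markers were at 3.73 ± 1.68 against 2.14 ± 0.71, 2.38 ± 0.87 and 1.96 ± 0.35. Library 4 of the self-administration saline group ranked first of all 59 for red blood cell and pituitary markers, and its 4 pituitary markers summed to 915 FPKM. Without that library Drd1 differed by 0.57, 0.72 and 0.49 and Maob by 0.40, 0.44 and 0.37, and all 6 were called by limma. Microglial markers were at 3.98 ± 0.29 against 4.19 ± 0.07, 4.18 ± 0.10 and 4.31 ± 0.22, and ependymal and choroid plexus markers at 1.18 ± 0.60 against 0.93 ± 0.33, 0.83 ± 0.28 and 0.87 ± 0.35. GABA neuron markers were at 6.15 against 6.21 to 6.36, and endothelial and pericyte markers at 3.02 against 3.05 to 3.15. The part of any of these lists in the Drd1, Maob and Drd4 differences was not tested.

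Pathway genes differed in both directions in self-administration saline. Of 9 tested genes of catabolism and clearance, 1 was called higher and 4, 3 and 3 called lower than in acute, chronic and conditioning saline. Called or not, 3, 3 and 2 were higher and 6, 6 and 7 lower. Sult1a1, a sulfotransferase, was higher by 2.25 ± 0.18, 2.36 ± 0.18 and 2.02 ± 0.18 (limma adjusted p at most 1.17e-09). Slc29a4, a plasma membrane monoamine transporter (-0.53, -0.60 and -0.61), and Aldh2, the mitochondrial aldehyde dehydrogenase that acts after monoamine oxidase (-0.48, -0.47 and -0.53), were lower.

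Among 19 tested D2-class effectors, 7, 8 and 7 were called higher and 2, 1 and 2 called lower. Called or not, 12, 14 and 13 were higher and 7, 5 and 6 lower. Arrb1, a beta-arrestin that desensitises receptors, was higher by 0.33, 0.36 and 0.35, Kcnj5, a GIRK subunit, by 0.31, 0.46 and 0.34, and Gnaz, a Gi-family alpha subunit, differed by -0.50, -0.41 and -0.41. Of 21 tested D1-class effectors, 6, 7 and 8 were called higher and 3, 2 and 3 called lower. Called or not, 15 were higher and 6 lower in each comparison. Prkacb, a catalytic subunit of protein kinase A, was higher by 0.35, 0.44 and 0.39, and Pde10a, a cyclic nucleotide phosphodiesterase, by 0.32, 0.35 and 0.34, while Ppp1r9b, the phosphatase scaffold spinophilin, was lower (-0.42, -0.33 and -0.39). Of 8 tested genes of synthesis and transport, 0, 0 and 3 were higher and 8, 8 and 5 lower, called or not. Those called were 0 higher and 3, 2 and 2 lower. Qdpr (-0.57, -0.63 and -0.72) and Spr (-0.40, -0.42 and -0.42), which serve the cofactor of tyrosine hydroxylase, were called lower in all 3 comparisons. Th, Slc6a3 and Slc18a2 were not called. The shares of these lists called, 25.0% to 55.6%, lay around the background given above, and their medians ran from -0.31 to 0.12 beside 0.02 over all genes.

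Inside groups, Drd2 and Maoa followed the level of dopamine neuron markers in the library. Each library's level of 10 dopamine neuron markers (Th, Slc6a3, Slc18a2, Ddc, Pitx3, En1, Nr4a2, Foxa1, Aldh1a1 and Chrna6) was taken as a mean of log2(FPKM + 1), and group means were removed from it and from the member. Over the 35 acute, chronic and conditioning libraries, Pearson's r with Drd2 was 0.97 (Spearman's rho 0.97; permutation adjusted p = 3.03e-04 for r, the smallest the permutations could give). Over the 24 self-administration libraries r was 0.87, with the same permutation adjusted p for r (rho 0.83). Without the 2 libraries farthest from the median of the marker level, r was 0.97 and 0.85.

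Maoa gave r = 0.92 (rho 0.92) over the 35 libraries and r = 0.63 (rho 0.65; permutation adjusted p = 0.0153) over the 24, and 0.92 and 0.65 without the 2 farthest libraries. Drd5 ran against the dopamine markers, with r = -0.54 (rho -0.56; permutation adjusted p = 0.0454) over the 35 libraries. Over the 24, r was -0.49 (permutation adjusted p = 0.0901) and rho was -0.55, which passed (permutation adjusted p = 0.0470). Maob (r = 0.44 and 0.33), Drd1 (-0.19 and 0.12), Drd3 (-0.14 and -0.04) and Drd4 (0.11 and 0.08) had correlations that did not pass. In all, 182 pairs of a member and a marker list were computed, and 25 had an adjusted p under 0.05 for r.

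**Figure D4:**
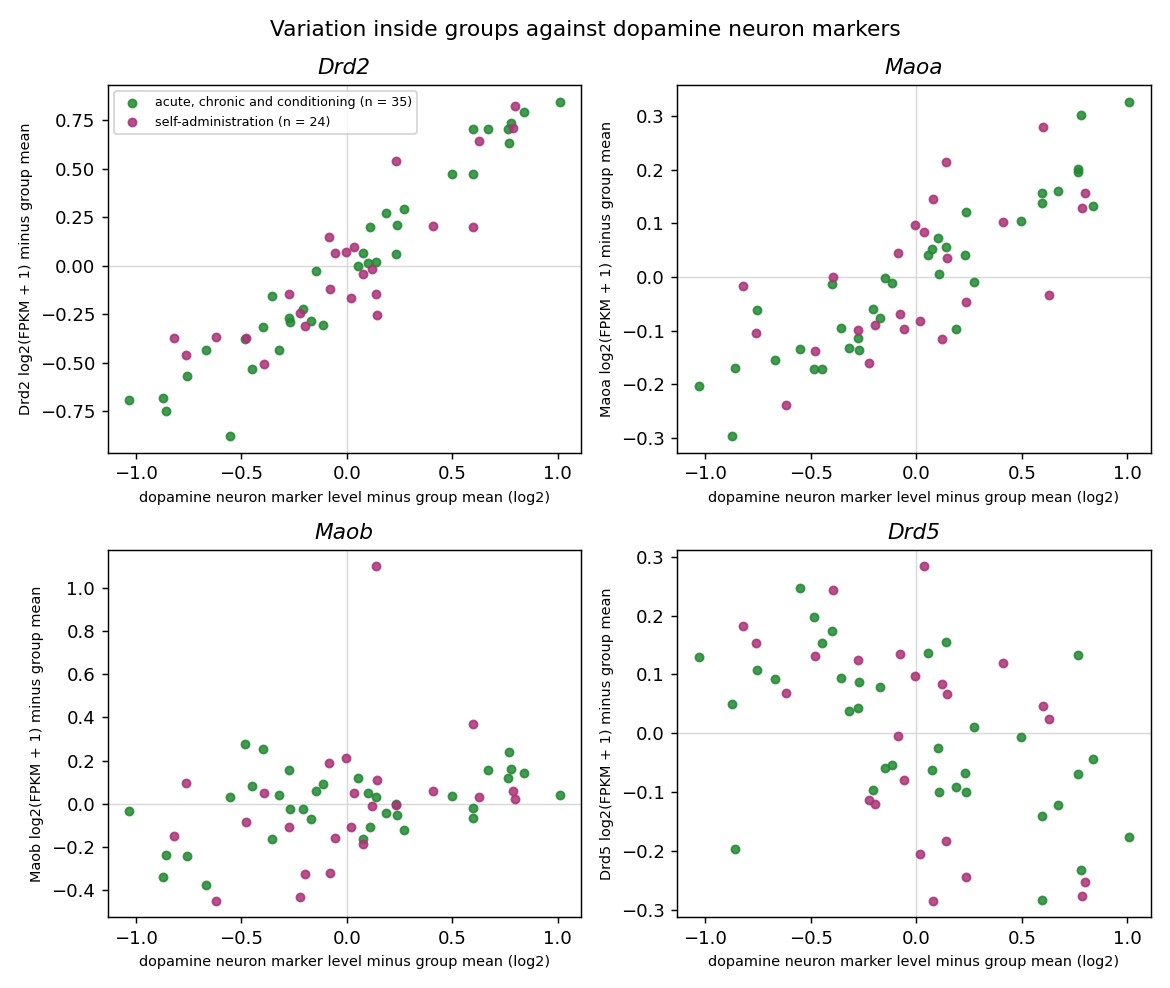
Log2(FPKM + 1) of Drd2, Maoa, Maob and Drd5 against the level of 10 dopamine neuron markers, both with the group mean removed, 1 point per library (green, acute, chronic and conditioning, n = 35; purple, self-administration, n = 24). Drd2 and Maoa rise along the axis, Maob shows 1 self-administration library far above the rest, and Drd5 slopes down.

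Members also correlated with each other in this way. Drd2 and Maoa had r = 0.90 over the 35 libraries and 0.47 over the 24, Drd2 and Drd5 -0.59 and -0.48, and Maoa and Maob, the neighbours on the X chromosome, 0.41 and 0.69. These values share the same libraries and are given as a description.

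Markers of other cell types also varied with members inside groups. Counting the dopamine neuron list, 18 of 91 pairs passed for r over the 35 libraries, and 7 of 91 in self-administration. Drd2 and Maoa rose with the 5 serotonin neuron markers over the 35 libraries (r = 0.70 and 0.73; permutation adjusted p = 3.03e-04 for each), but in self-administration r was 0.32 and 0.21 and did not pass. These markers were Tph2, Slc6a4, Fev, Gata3 and En2. The dopamine neuron list holds the related En1, and the part of single markers was not tested. Drd2 and Maoa also passed with microglial (r = 0.54 and 0.53) and with endothelial and pericyte markers (-0.54 and -0.55). Maoa passed with astrocyte (0.55) and with ependymal and choroid plexus markers (-0.55). In self-administration none of these glial and vascular pairs passed for Maoa. Drd1 rose with the hypothalamic markers (r = 0.78, rho 0.80, and 0.74 without the 2 farthest libraries; permutation adjusted p = 3.03e-04) and ran against the serotonin (r = -0.61) and oligodendrocyte markers (r = -0.63). In self-administration Drd1 had r = 0.14 with the hypothalamic markers, which did not pass. With the oligodendrocyte markers r was -0.56 (permutation adjusted p = 0.0531) and rho was -0.64, which passed (permutation adjusted p = 0.0144). Over the 35 libraries Drd5 ran against the serotonin neuron markers (r = -0.57) and rose with the hypothalamic markers (r = 0.44), and both passed. In self-administration these r were -0.43 and 0.12, and neither passed (permutation adjusted p = 0.161 and 0.752). There the rho of Drd5 with the serotonin markers was -0.57, which passed (permutation adjusted p = 0.0386). Maob passed over the 35 libraries with endothelial and pericyte markers (r = -0.55). It also passed there with pituitary markers (r = 0.44), where rho (0.35) did not pass. Whether a correlation differed between these 2 sets of libraries was not tested.

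In self-administration Maob rose with the astrocyte markers (r = 0.62, rho 0.50; permutation adjusted p = 0.0323) and the striatal and cortical markers (r = 0.80, rho 0.27; permutation adjusted p = 0.0319). Neither rho passed (permutation adjusted p = 0.1002 and 0.474), and both rested on few libraries: without the 2 farthest, r was 0.39 and 0.12. The library with 40.6 FPKM of Maob was the one with the highest striatal and cortical level. Drd5 rose (r = 0.60) and Drd2 fell (r = -0.58) with markers of ependyma and choroid plexus in self-administration (permutation adjusted p = 0.0269 and 0.0301). Maoa rose with striatal and cortical markers there (r = 0.54; permutation adjusted p = 0.0153), but rho (0.41) did not pass.

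**Figure D5:**
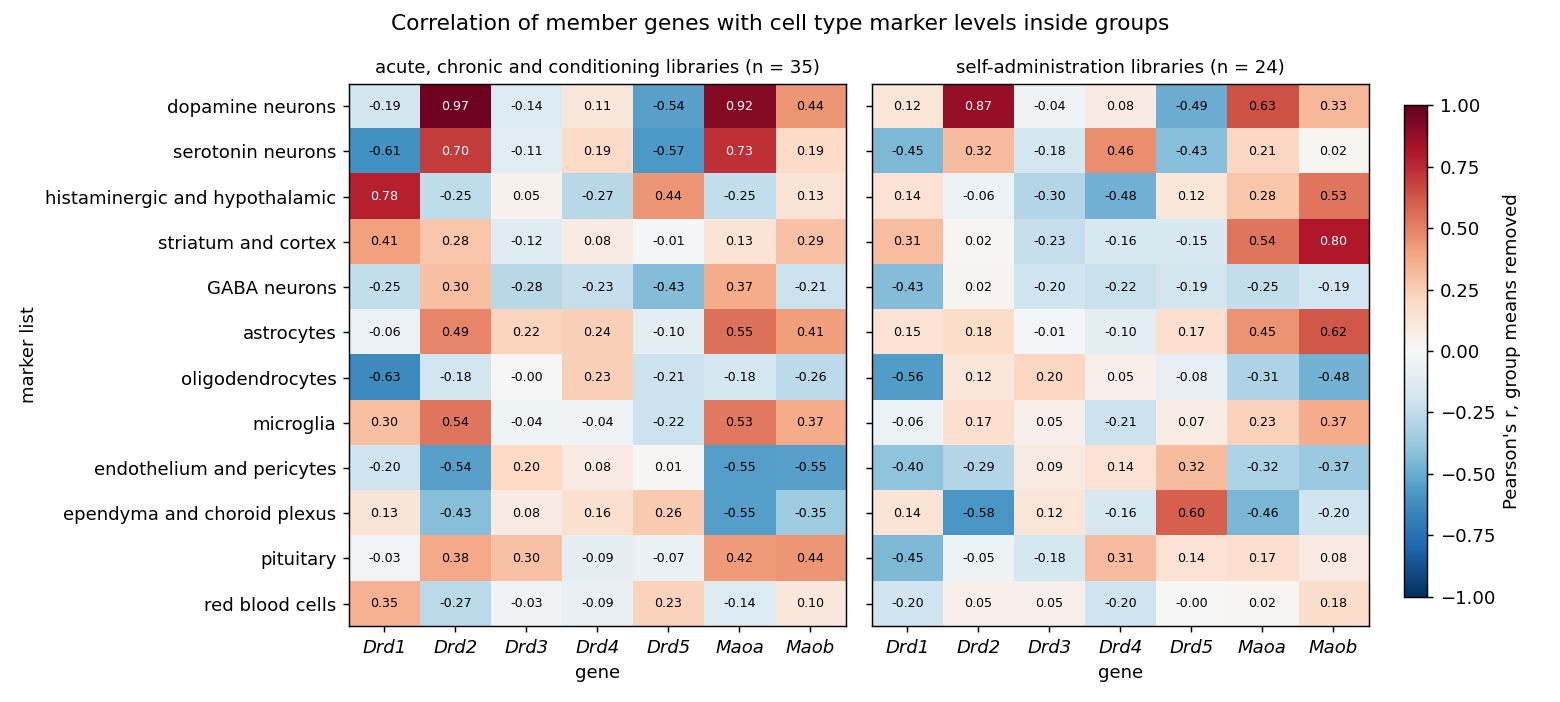
Pearson's r between each member and the mean level of 12 of the 13 cell type marker lists (1 is not drawn), group means removed, over 35 acute, chronic and conditioning libraries (left) and 24 self-administration libraries (right). Red is positive and blue negative, with the strongest cells for Drd2 (0.97 and 0.87) and Maoa (0.92) with dopamine neuron markers.

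The genes most like each member over the 59 libraries, group means removed, were sought among the 13186 genes that averaged 1 FPKM or more. For Drd2 they were Ntsr1, a neurotensin receptor (r = 0.96), Slc6a3, the dopamine transporter (0.96), and Dlk1 (0.95). For Maoa they were Il13ra1 (0.90), Erc2 (0.89) and Tmem207 (0.89), each with a lower r in self-administration (0.79, 0.76 and 0.83) than in the 35 other libraries (0.96, 0.95 and 0.91). For Maob they were Nnat (0.83), Slc1a3, an astrocyte glutamate transporter (0.79), and Efnb2 (0.78), with lower rho (0.76, 0.72 and 0.55). Their r was 0.75, 0.74 and 0.60 in the 35 other libraries and 0.91, 0.82 and 0.84 in self-administration. The self-administration libraries include the one with 40.6 FPKM of Maob, and its part in these values was not tested. For Drd1 they were Pnmal1 (0.78), Timp2 (0.78) and Ap3m2 (0.77). These are descriptions over the same 59 libraries.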

How the data were processed

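An RNeasy kit gave the total RNA and a TruSeq RNA kit the libraries, per the labels' protocols. The authors deposited 1 table of FPKM by gene symbol, and per the submitters' processing notes Bowtie and Cuffnorm were used with mm10. The annotation, like tool versions and the strand setting, is not given in the sources used here. FPKM depends on library composition and transcript models, and depth is unknown, so no counting interval is given. Columns were mapped to groups by name, and 0 columns were left unused. Libraries are named by group and column number, counted from 0.

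Values were analysed as log2(FPKM + 1) by limma 3.58.1 in R 4.3.3 (trend and robust options, two-sided, Benjamini-Hochberg over all genes tested). Genes needed a mean of 1 FPKM in a comparison; members below it were read from a fit at 0.1 FPKM, and below that were not tested. Fits within a paradigm used only its 2 groups. Ratios were tested by exact permutation, adjusted over 20 comparisons, and correlations by 100000 permutations within groups, adjusted over 182 pairs (Python 3.11.15, scipy 1.17.1). All members were named in every comparison; of the pathway lists, up to 4 called genes by lowest p could be named, with Th, Slc6a3 and Slc18a2 in any case. Some items of these lists are not reported here. Coordinates came from GENCODE M21 by symbol (23310 of 24346 matched). The limma steps were tested on simulated data. Members, lists and tests were chosen with earlier results of these data known. Alternatives were other pseudocounts, filters, scalings, library weights, fits and left-out libraries.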

Additional observations from a re-analysis of the deposited data

Results flagged for a closer look

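In 49 checks of a member in a group of 4 to 10 libraries, 2 had a highest library set far from the rest. Chance gives about 1 in 20. Drd2 reached 71.1 FPKM in 1 self-administration saline library, where the nearest was at 45.9. Drd4 reached 0.346 FPKM in 1 acute saline library, where the nearest was at 0.150.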

How the results depend on the processing

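The 7 calls of Drd1, Maob and Maoa between saline groups held under each alternative run, and 0 of 631 values of the members' 33 cocaine differences under alternatives was called (lowest adjusted p 0.0789 by limma). Small cocaine differences of uncalled members changed sign: with limma library weights, Drd4 0.028 and Maob 0.045 (acute), Drd2 -0.14 and Maoa -0.027 (chronic), Drd2 0.19, Drd4 0.0067, Maoa 0.0071 and Maob 0.018 (conditioning), Drd2 0.079 (self-administration) and Maob 0.022 (average); with a pseudocount of 0.1 FPKM, Drd3 -0.021 (chronic); with quantile normalization, Drd4 0.0068 and Drd5 0.0034 (conditioning) and Maob 0.0020 (average); without the acute libraries, Drd2 0.0072 (average); without the conditioning libraries, Maob 0.014 (average); without the self-administration libraries, Maob 0.0016 (average). Leaving out 1 library at a time, the differences that changed sign ran as follows. For acute: Drd1 -0.041 to 0.080, Drd3 -0.099 to 0.023, Maob -0.069 to 0.051 and Drd4 -0.050 to 0.032. For chronic: Drd3 -0.033 to 0.076, Drd1 -0.064 to 0.072, Drd2 -0.042 to 0.25, Drd4 -0.049 to 0.0080 and Maoa -0.0093 to 0.092. For conditioning: Drd5 -0.073 to 0.034, Drd2 -0.24 to 0.11, Drd4 -0.023 to 0.0054 and Maoa -0.084 to 0.016. For self-administration: Drd2 -0.058 to 0.10, Maob -0.086 to 0.039 and Drd3 -0.044 to 0.0060. For self-administration saline minus chronic: Drd2 -0.17 to 0.11. For self-administration saline minus conditioning: Drd3 -0.019 to 0.049 and Drd2 -0.060 to 0.20. 

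Ratios within libraries changed as follows. Drd2 relative to Th, Slc6a3 and Slc18a2 differed in self-administration saline by 0.16, 0.14 and 0.05 from acute, chronic and conditioning saline. None of these was called (exact adjusted p = 0.582, 0.776 and 0.879). With all 10 dopamine neuron markers in their place, it was higher by 0.46 (exact adjusted p = 0.0140), 0.43 (0.0144, exact) and 0.43 (0.0144, exact). Of genes at the 1 FPKM limit, 46.5%, 47.9% and 50.2% were called in these comparisons, and ratios of other genes to these markers were not tested. With the 10 markers, the differences for conditioning with cocaine (0.071) and for conditioning minus chronic saline (-0.0016) changed sign. Leaving out 1 library at a time, Maoa relative to Maob ran from -0.048 to 0.037 (saline chronic minus acute), -0.095 to 0.0088 (chronic cocaine), -0.35 to -0.27 (saline self-administration minus chronic), -0.012 to 0.13 (conditioning cocaine), -0.087 to 0.0017 (self-administration cocaine) and -0.35 to -0.27 (saline self-administration minus acute). Leaving out 1 library at a time, Drd2 relative to Th, Slc6a3 and Slc18a2 ran from -0.079 to 0.079 (saline chronic minus acute), -0.073 to 0.049 (conditioning cocaine) and -0.0083 to 0.12 (saline self-administration minus conditioning). 

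The Maoa to Maob ratio kept its sign in the comparisons of self-administration saline with chronic and acute saline, with some calls lost. Drd5 was called higher in self-administration than in acute (0.16) and chronic saline (0.19) with library weights, and Maoa than in chronic saline (0.16) with quantile normalization (limma adjusted p = 0.0369, 0.0285 and 0.0490). With quantile normalization the correlations of Maob with endothelial and pericyte (-0.53) and with striatal and cortical markers (0.76) no longer passed (permutation adjusted p = 0.0572 and 0.0815).

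Counts of all genes called moved in several comparisons. For conditioning cocaine, 0 became 1 (upper-quartile scaling) and 1 (library weights). For self-administration cocaine, 0 became 1 (library weights) and 2 (one fit of all 8 groups). For average cocaine effect, 1 became 2 (upper-quartile scaling), 41 (library weights), 0 (without the acute libraries) and 2 (without the self-administration libraries). For saline conditioning minus chronic, 3 became 5 (pseudocount of 0.1 FPKM), 6 (upper-quartile scaling), 6 (quantile normalization) and 274 (library weights). For saline conditioning minus acute, 1 became 0 (filter at a mean of 0.1 FPKM), 0 (no filter on low values), 0 (upper-quartile scaling) and 33 (library weights). For saline chronic minus acute, 0 became 44 (library weights). For chronic cocaine, 0 became 1 (one fit of all 8 groups). Leaving out 1 library at a time gave 0 to 1 (chronic cocaine), 0 to 2 (saline conditioning minus acute) and 2 to 9 (saline conditioning minus chronic). The cause was not tested in any of these.

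No paired analysis was possible because the columns of the table are numbered from 0 and no source used here links these numbers to replicates. Leaving out each library of the saline comparisons and of the self-administration cocaine group was chosen after seeing the data. Drd3, Drd4 and Drd5 averaged under 1 FPKM over all libraries, where the unknown depth limits what can be seen.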
